A study of Mus musculus with 4 samples.

Results

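Accessible chromatin at the collagen genes of mouse bone mesenchymal stem cells (MSCs) is described here from an ATAC-seq table of 117282 regions (peaks). A peak was counted when it lay on chromosomes 1 to 19 and either overlapped a protein-coding collagen gene of the GENCODE vM21 annotation (a symbol made of Col, digits, the letter a and digits) or lay within 5 kb upstream of its start. Of the 44 such genes, 42 were autosomal and each had at least 1 peak, which gave 405 peaks out of 117282 in all. The fibrillar class held 86 peaks of 11 genes, the basement membrane class (autosomal type IV genes) 51 peaks of 4 genes, and the other types 268 peaks of 27 genes. Among the 405 peaks, 48 were start-site peaks (at most 1 kb from where a protein-coding transcript of their gene begins), 114 were otherwise exonic, 237 intronic and 6 only upstream. A start-site peak was present at 39 genes and missing at the other 3, Col17a1, Col22a1 and Col28a1. A pair of peaks was shared by neighbouring collagen genes (Col4a1 with Col4a2, and Col4a3 with Col4a4), and 4 peaks also reached to within 1 kb of where another protein-coding gene begins.

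The table compared 2 samples of MSCs from old mice, given as 18 to 22 months, with 2 from young mice, given as 3 to 5 months. Both groups were kept in culture at 2% O2 throughout, and no transgene, deletion or drug is named for either. In the methods of the study, MSCs grew out of limb bone and were sorted as CD45-/Ter-119-/Sca-1+/CD140a+ cells from C57BL/6N mice, described for young males. Nothing in the labels says whether the samples came from separate animals or cultures, so every p-value measures the spread between these samples only.

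Collagens are the main structural proteins of the extracellular matrix, built from chains of glycine-led repeats that wind around each other. Fibrillar types such as I, III and V form the banded fibrils of bone, skin and tendon, and type I makes up most of the organic matrix of bone. Type IV chains assemble into the sheet-like network of basement membranes, beneath epithelia and around vessels, fat and muscle cells. The remaining types include beaded filaments (type VI), fibril-associated collagens that coat fibrils, network-forming types of cartilage and cornea, multiplexins of the basement membrane zone and collagens anchored in the cell membrane. ATAC-seq reads mark DNA that the Tn5 transposase can reach, so a value describes how open a region is, not how much of the gene is transcribed.

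4 stretches of sequence are shown where they bear on the regions described further on, all on the plus strand of GRCm38, the assembly that mm10 names. In each, capitals mark letters that match, on either strand, any of 7 short motifs searched for: the AP-1 motif TGANTCA, the RUNX motif TGTGGT, the TEAD motif GGAATG, the SOX motif ACAAAG, the CCAAT box (the letters of its name), the GC box motif GGGCGG and the TATA box motif TATAAA. The 250 bases before the RefSeq start of Col3a1 (chr1:45311288-45311537) and of Col5a1 (chr2:27886175-27886424) lie inside broad start-site peaks and contrast in base composition, with 35.2% G and C in Col3a1 and 76.4% in Col5a1. The central 300 bases of an intronic Col25a1 peak (chr3:130264701-130265000) are shown because that peak had the lowest adjusted p of all collagen peaks. The central 300 bases of a Col3a1 peak (chr1:45322301-45322600), which cross a coding exon, are shown because that peak had the lowest log2 fold change.
Col3a1 promoter: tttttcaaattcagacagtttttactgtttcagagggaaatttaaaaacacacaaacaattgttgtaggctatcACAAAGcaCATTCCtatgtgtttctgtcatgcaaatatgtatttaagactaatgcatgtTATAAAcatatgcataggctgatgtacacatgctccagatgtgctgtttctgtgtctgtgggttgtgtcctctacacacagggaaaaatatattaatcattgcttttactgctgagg
Col5a1 promoter: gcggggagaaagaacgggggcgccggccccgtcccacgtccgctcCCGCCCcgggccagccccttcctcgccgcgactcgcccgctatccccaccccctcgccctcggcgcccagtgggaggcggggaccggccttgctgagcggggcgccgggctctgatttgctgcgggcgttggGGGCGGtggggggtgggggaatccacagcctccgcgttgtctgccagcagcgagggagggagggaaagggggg
Col25a1 intron: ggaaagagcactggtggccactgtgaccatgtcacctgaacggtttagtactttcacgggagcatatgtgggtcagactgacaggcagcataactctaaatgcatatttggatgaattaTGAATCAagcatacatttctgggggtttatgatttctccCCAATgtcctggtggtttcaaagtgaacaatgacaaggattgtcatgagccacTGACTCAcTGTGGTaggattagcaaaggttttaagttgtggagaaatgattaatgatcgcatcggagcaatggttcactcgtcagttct
Col3a1 exon and flanks: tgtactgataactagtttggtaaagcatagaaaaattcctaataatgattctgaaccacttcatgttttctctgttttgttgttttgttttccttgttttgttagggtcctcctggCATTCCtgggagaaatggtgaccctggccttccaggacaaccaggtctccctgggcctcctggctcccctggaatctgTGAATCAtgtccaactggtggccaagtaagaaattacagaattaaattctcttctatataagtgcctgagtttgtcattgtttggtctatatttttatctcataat
The Col3a1 promoter held SOX, TEAD and TATA box letters, the last beginning 117 bases before the start. In the Col5a1 promoter the only matches were a pair of GC boxes, beginning 205 and 73 bases before the start. The Col25a1 window held AP-1 letters at 2 places and RUNX letters 8 bases after the second of them began, at positions 212 and 220 of the window, with a CCAAT box between. Single TEAD and AP-1 matches lay in the Col3a1 exon window. Such matches are letters in a window, not bound sites.

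Values in the table were whole multiples of a step that differed between samples, and the number of steps was taken as the number of reads behind a value. Autosomal peaks held between 10401386 reads (old replicate 1) and 15545401 reads (young replicate 2), and the 405 collagen peaks between 47403 and 70132. A collagen peak held a median of 40 to 56 reads in a sample, so narrow peaks rested on few reads. Mitochondrial peaks held 6.52% of the summed values of old replicate 2, and 13.5% to 15.7% of those of the other samples. Over all peaks, scaled log2 values correlated at Pearson r = 0.955 between old replicates and 0.971 between young replicates. Old-young pairs lay between 0.924 and 0.950. Whether this bears on the results was not tested. Levels are given below as scaled value per kb of peak (density), that is, the deposited value after division by an RLE size factor and by peak width. All 8 stromal marker genes (Pdgfra, Ly6a, Prrx1, Twist1, Twist2, Eng, Nt5e, Thy1) had a start-site peak, with a summed density of 170 to 208 in old and 160 to 171 in young samples. Of the blood and macrophage markers, Spi1, Csf1r and Cd68 had a start-site peak, summing to 60.4 to 79.4 in old and 66.5 to 78.6 in young samples, and Ptprc, Adgre1 and Cd3e had none. Start-site peaks were also found at 3 of 4 endothelial, 3 of 4 cartilage, 4 of 4 bone and 2 of 3 fat markers. Endothelial sums were lower in both old samples (50.8 to 52.1, against 55.8 to 57.2 in young), as were bone sums (54.9 to 55.3, against 57.4 to 60.1). Among the endothelial markers only Tek was lower (16.9 and 17.5 in old, 31.3 and 26.9 in young), while Pecam1 and Kdr were higher in both old samples. Among the bone markers only Dmp1 was lower (19.1 and 19.8 in old, 25.8 and 28.6 in young), and the rest overlapped. Cartilage sums (59.8 to 78.2 in old, 57.9 to 61.6 in young) and fat sums (34.0 to 40.0 and 34.6 to 38.8) overlapped. The part of any such cells in the results was not tested.

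Several fibrillar genes lay under exceptionally broad peaks. The 91.4 kb peak over the start and much of the body of Col5a1, a chain that nucleates fibrils, was the widest of all 117282 peaks. A single 32.0 kb peak spanned Col1a1 and a single 48.7 kb peak spanned Col1a2, the genes of both type I chains, and each covered its whole gene (51 of 51 and 52 of 52 exons of the transcript with most exons). For Col5a1, peaks of 91.4, 46.1 and 30.3 kb together put 98.8% of the gene body inside accessible regions. The widths and covers in this and the next paragraph were looked at after these broad peaks had been seen, and they are a description with no test.

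Among autosomal protein-coding genes of at least 10 kb, the median cover of the gene body by peaks was 10.6% (13520 genes). It was 38.4% over the fibrillar genes, from 6.97% in Col11a1 to 100% in Col1a1 and Col1a2. It was 22.3% over the basement membrane genes, where Col4a2 (37.1%) and Col4a1 (33.3%) stood above Col4a4 (11.2%) and Col4a3 (4.57%), chains best known from kidney and other specialised basement membranes. The other types had a median of 17.2%, led by the fibril-associated Col12a1 (78.3%) and the type VI genes Col6a1 (66.6%) and Col6a2 (57.7%). A cover of at least 90% was found in 3 of the 42 collagen genes (7.14%) and in 113 of the 13520 genes of at least 10 kb (0.836%). The 42 were not limited by length and include Col10a1, of 7.1 kb. At the low end stood Col22a1 (2.89%), Col19a1 (2.97%), the hypertrophic cartilage gene Col10a1 (3.10%) and Col25a1 (4.04%).

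**Figure D1:**
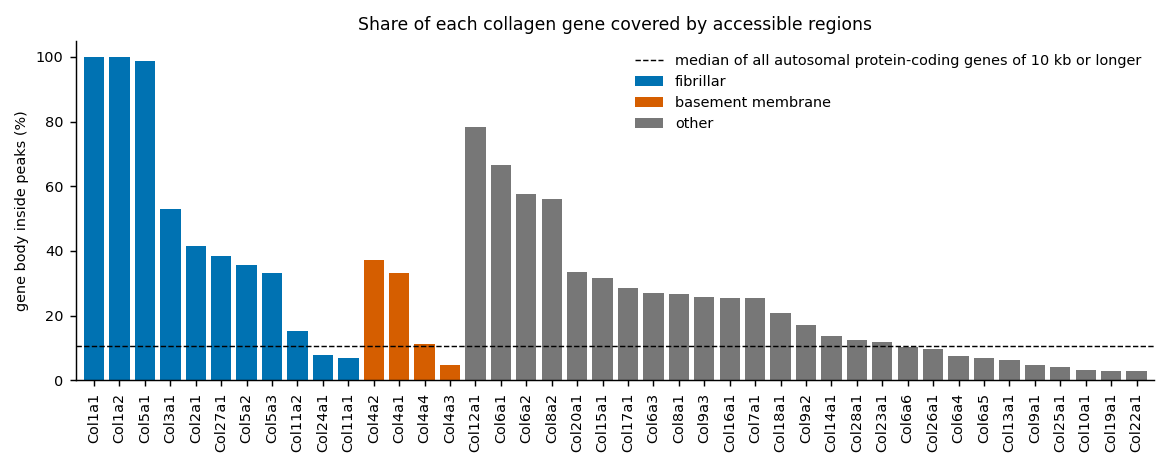
Bars give the share of each of the 42 gene bodies that lay inside peaks (%), by class, and the dashed line is the median of all autosomal protein-coding genes of 10 kb or longer (10.6%). Col1a1, Col1a2 and Col5a1 stand at or near 100%, and basement membrane genes reach at most 37.1%.

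Peaks of at least 10 kb made up 19 of the 405 collagen peaks (4.69%), against 1060 of all 117282 (0.904%). Among the 68574 autosomal peaks that any protein-coding gene held by the same rule, they made up 997 (1.45%). Of the 19 wide collagen peaks, 8 belonged to fibrillar genes. None of the 51 peaks of basement membrane genes was as wide, and the widest of those measured 9.2 kb, over a transcript start inside Col4a1. Col12a1 held 4 of the wide peaks, of 32.4, 26.2, 12.7 and 12.0 kb. Some wide peaks reached well past their gene. Only 2.81 kb of a 19 kb peak at the end of Col3a1 lay in the gene, and 8.81 kb of an 18.0 kb peak at the end of Col6a1. Collagen peaks together held 0.452% of the signal of autosomal peaks. Fibrillar genes held 0.196% and basement membrane genes 0.0485% of that same autosomal total.

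**Figure D2:**
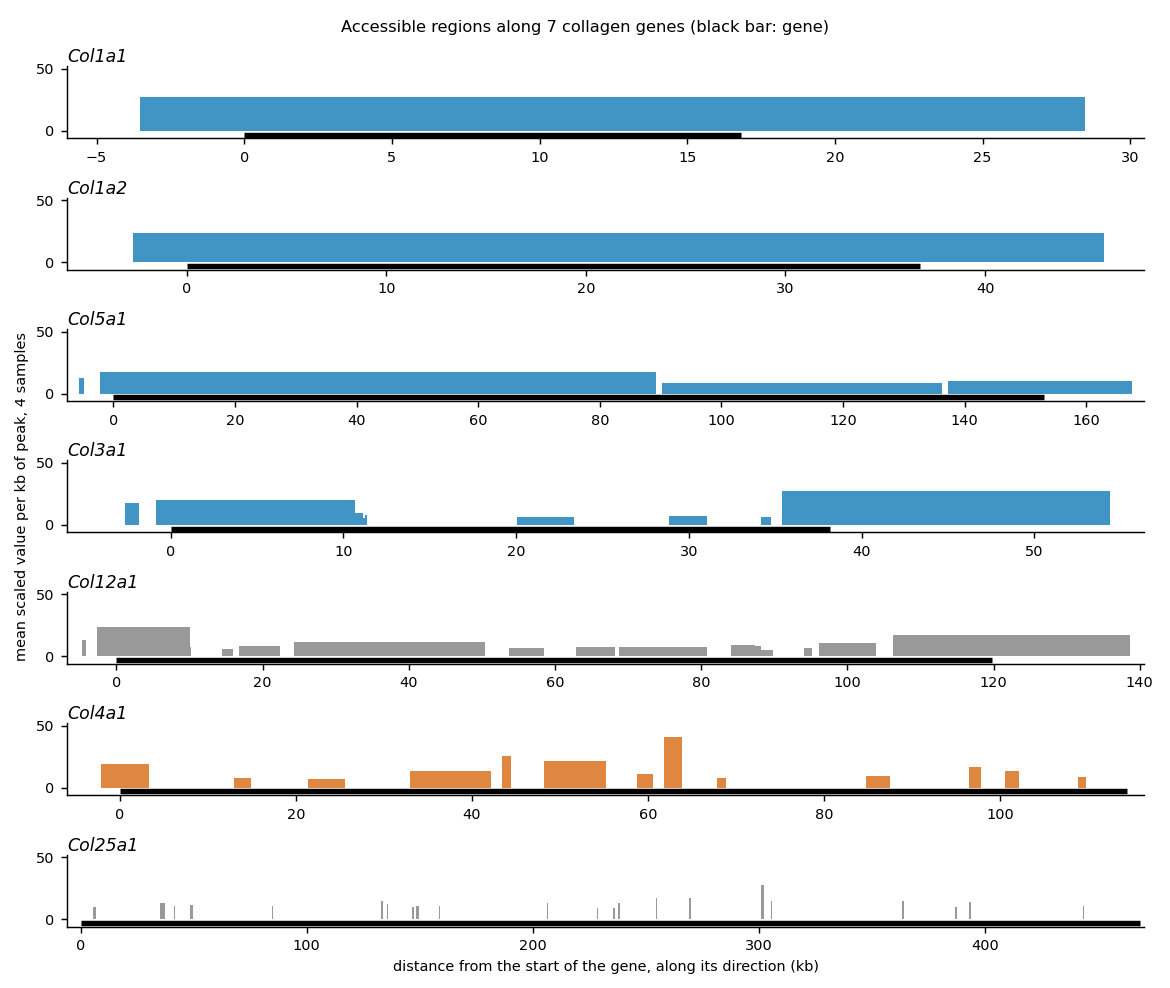
Rectangles are peaks along Col1a1, Col1a2, Col5a1, Col3a1, Col12a1, Col4a1 and Col25a1, at the distance from the start of the gene in kb, with the mean scaled value per kb over the 4 samples as height and the gene as a black bar. Each panel has its own distance axis. Single peaks span Col1a1 and Col1a2, while the 468 kb Col25a1 gene carries 23 narrow peaks.

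Density followed a different order from width. The densest collagen peak was a 3.8 kb exonic peak of the fibrillar gene Col27a1 (chr4:63309001-63312800), at 79.2 and 102 in the old and 103 and 93.1 in the young samples. Next came intronic or exonic peaks of Col5a3 (54.8 and 56.1 in old, 59.3 and 58.5 in young), Col8a1 (59.1 and 53.0, 52.3 and 57.1), Col26a1 (42.0 and 56.5, 59.5 and 55.02) and Col15a1 (45.9 and 39.6, 54.1 and 62.1). This Col15a1 peak was lower in both old samples (-0.44 ± 0.16, limma adjusted p 0.185), at -0.54 without old replicate 1 and -0.33 without old replicate 2. None of these 5 densest peaks was at a start site. At start sites the median density was 19.95 over the 14 fibrillar peaks, 13.3 over the 4 basement membrane peaks and 15.7 over the 30 of other types, against 27.1 over 15717 start-site peaks of all autosomal genes. The class order at start sites did not carry over to the densest peak of each gene, whose medians were 34.2, 34.6 and 28.1.

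Between old and young MSCs, no collagen peak passed the threshold, an adjusted p under 0.01. The study gives that level for its accessibility comparison of oxygen levels, made with edgeR, and not for these samples. The test here was limma on log2(value + 1) of all peaks with Benjamini-Hochberg adjustment, and 0.0563% of all peaks passed. Leaving out old replicate 1 gave 23 collagen peaks lower and 18 higher in old (5.45% and 3.35% of all peaks passed then), and leaving out old replicate 2 gave 4 and 1 (1.05% and 0.393%), with the lone remaining old sample assumed to vary like the young ones. At an adjusted p under 0.05, 2 collagen peaks were lower and none higher in old, and 0.771% of all peaks were lower at that level. At an unadjusted limma p under 0.05, 42 collagen peaks were lower (10.4%, against 8.87% of all peaks) and 34 higher (8.40%, against 7.49%). Both old samples lay below both young samples in 97 collagen peaks (24.0%, against 24.2% of all peaks) and above them in 85 (21.0%, against 23.2%). The collagen shares were thus close to the background in each direction.

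The median log2 fold change of old over young was -0.03 over the 405 collagen peaks, between -0.07 and 0.01 in the 4 possible old-young pairs of samples, and 0.00 over all peaks. The classes lay within a narrow band, at 0.02 for fibrillar, -0.07 for basement membrane and -0.04 for other peaks, and in each the 4 pairs ran from below to above 0. Start-site peaks had a median of 0.11 (0.00 to 0.15 over the pairs), beside -0.02 over all start-site peaks. Of the 48 start-site peaks, both old samples lay above both young in 12 (25%, against 16.0% of all start-site peaks) and below in 7 (14.6%, against 25.2%). A log2 fold change below 0 was found in 52.8% of collagen peaks and 49.9% of all peaks. Without the RLE factors the old samples shifted down, to a median of -0.27 over all peaks and -0.31 over collagen peaks.

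**Figure D3:**
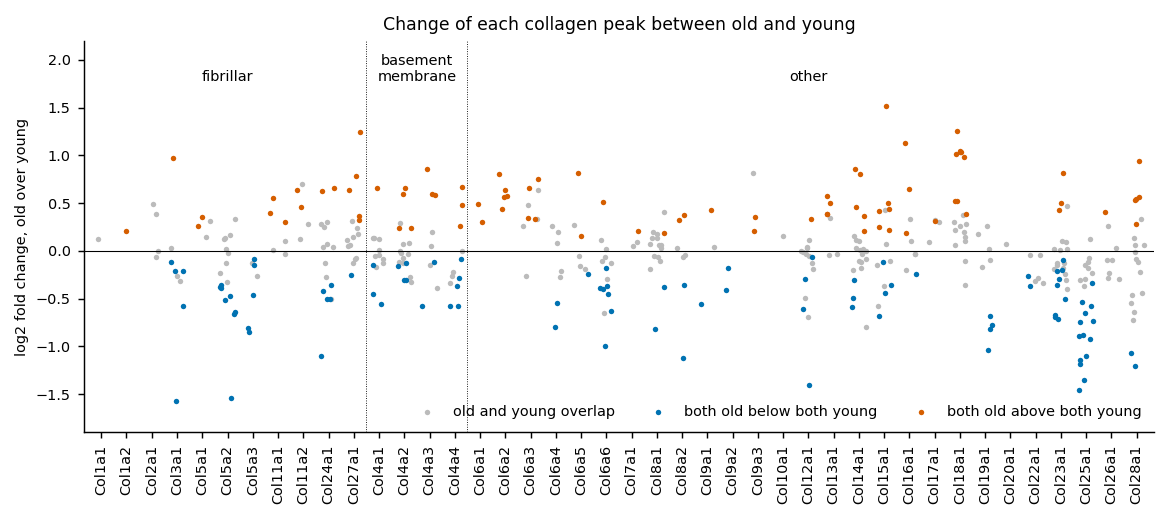
Points are collagen peaks by gene, with the limma log2 fold change of old over young on the y axis, coloured by whether the 2 old samples lie on one side of both young samples. Fibrillar, basement membrane and other genes spread on both sides of 0, Col25a1 points lie mostly below it and Col6a2 points all above it.

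Among fibrillar genes, Col3a1, whose chain forms thin fibrils in skin, vessels and healing tissue, had 7 of 9 peaks with a negative log2 fold change. Its 19 kb peak (chr1:45346901-45365900), mostly past the end of the gene, had densities of 25.2 and 19.1 in old and 30.6 and 35.2 in young samples. Both old samples were lower, by a log2 fold change of -0.58 ± 0.13 (SE), with a limma adjusted p of 0.0433. It passed 0.01 without old replicate 1 (-0.78) and without old replicate 2 (-0.38). This peak was singled out after its values were seen, for its adjusted p under 0.05.

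A 500 bp Col3a1 peak over a coding exon (chr1:45322201-45322700) had the lowest log2 fold change of all collagen peaks whose groups did not overlap. It held 6 and 4 reads in the old and 22 and 25 reads in the young samples, for densities of 5.16 and 2.44 against 14.6 and 14.8. The log2 fold change was -1.57 ± 0.41 (SE), with a limma adjusted p of 0.0669, and -1.91 without old replicate 1 and -1.22 without old replicate 2. It adjoined, with no gap, the 11.5 kb peak over the start of the gene, where the densities were 18.9 and 18.4 in old and 19.9 and 23.5 in young samples and the log2 fold change -0.21 ± 0.14. Of all peaks, 3.86% adjoined another in this way, and of collagen peaks 22 (5.43%). The sources used here do not say how such borders were set. At 2 transcript starts inside Col3a1, peaks of 3.3 and 2.2 kb stayed between 4.95 and 7.42 in all samples.

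Type I start-site peaks showed small differences. The Col1a1 peak measured 22.5 and 34.4 in old and 24.5 and 26.6 in young samples, so old replicate 2 was the highest and old replicate 1 the lowest. Its log2 fold change was 0.13 ± 0.14, and -0.01 after centring on chromosome 11, where old replicate 2 ran 0.17 above its autosomal level on the log2 scale. The Col1a2 peak measured 24.0 and 26.4 in old and 20.6 and 23.0 in young samples, a log2 fold change of 0.21 ± 0.10 with a limma adjusted p of 0.298. Both old samples were above both young, though the sign turned to -0.08 without the RLE factors. Without old replicate 1 both type I peaks passed the threshold, at 0.43 and 0.28, and without old replicate 2 that of Col1a1 was at -0.18.

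The type V genes differed from each other. The 91.4 kb Col5a1 peak had densities of 17.2 and 19.5 in old and 17.7 and 15.5 in young samples, which overlapped, and a log2 fold change of 0.15 ± 0.10 (0.24 without old replicate 1 and 0.057 without old replicate 2). Its 46.1 kb neighbour, at 9.46 and 8.75 against 7.74 and 7.46, was higher in both old samples (0.26 ± 0.12, limma adjusted p 0.297). All 4 Col5a1 peaks had a positive log2 fold change, although both peaks just named turned negative without the RLE factors (-0.14 and -0.03). In Col5a3 all 7 peaks, and in Col5a2 12 of 17, had a negative one, beside 49.9% of all peaks. Col5a2 (chr1:45374321-45503282) lies close to Col3a1 (chr1:45311538-45349706). Col5a2 and Col3a1 are thus not separate places in the genome, and whether their shared neighbourhood matters was not tested. The Col5a3 start-site peak measured 40.2 and 43.5 in old and 48.2 and 43.2 in young samples, and that of Col5a2 18.3 and 22.9 against 18.3 and 19.3, and both overlapped between the groups. A 200 bp intronic Col5a2 peak (chr1:45485201-45485400) was taken for its large change among peaks whose groups did not overlap. It measured 4.30 and 3.05 in old and 18.2 and 22.3 in young samples (-1.54 ± 0.46, limma adjusted p 0.0983). That peak held 2 and 2 reads in the old and 11 and 15 in the young samples.

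The cartilage fibril genes were open in these cells as well. The start-site peak of Col2a1, the main collagen of cartilage, measured 38.8 and 38.9 in old and 41.6 and 36.5 in young samples, a log2 fold change of -0.005 ± 0.14. Col11a1, its minor partner chain, measured 43.7 and 36.5 against 35.5 and 39.0 (0.10 ± 0.15). Col11a2 was lower in level, at 14.9 and 14.5 in old and 10.6 and 10.7 in young samples, and both old samples were higher (0.45 ± 0.20, limma adjusted p 0.271). The start-site peaks of Col24a1 (14.5 and 15.9 in old, 15.8 and 13.8 in young) and Col27a1 (29.2 and 33.0, 30.3 and 27.4) overlapped between the groups. Inside Col27a1, a 300 bp intronic peak (chr4:63302601-63302900) was among the 5 collagen peaks with the highest log2 fold change of those whose groups did not overlap. It measured 22.9 and 12.2 in old against 6.63 and 3.96 in young samples, from 16 and 12 against 6 and 4 reads (1.24 ± 0.45, limma adjusted p 0.171).

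**Figure D4:**
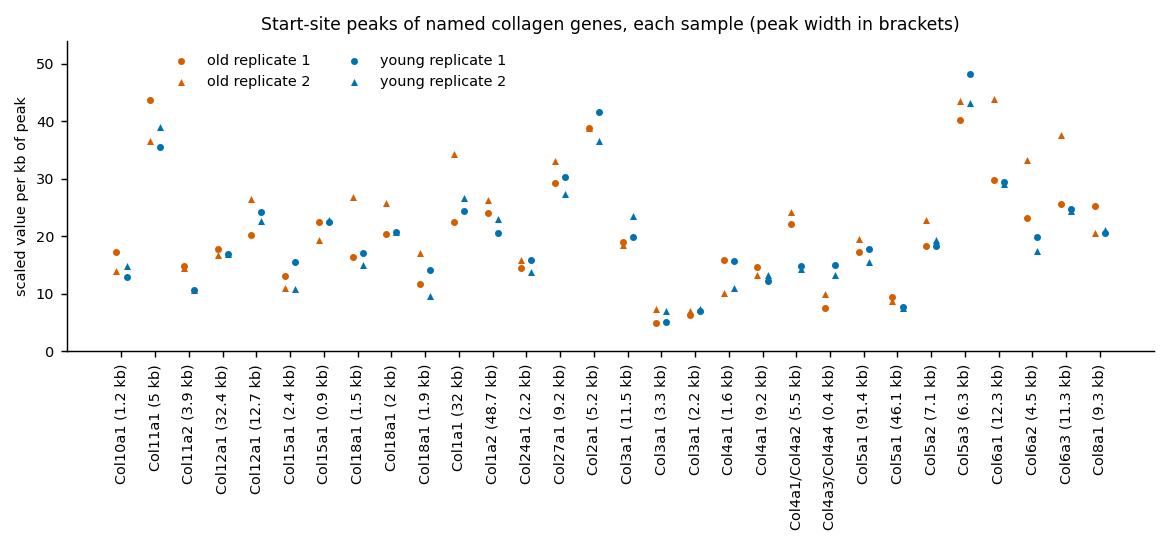
Points give the scaled value per kb of the start-site peaks of the fibrillar, type IV and 8 other named genes in each of the 4 samples, with peak width in brackets. The shared Col4a1/Col4a2 peak and the 3 type VI peaks lie higher in both old samples, and in the type VI peaks old replicate 2 stands far above old replicate 1.

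Among basement membrane genes, the region that differed most was the start shared by Col4a1 and Col4a2, which are transcribed away from each other and encode the most widespread type IV chains. This 5.5 kb peak (chr8:11309501-11315000) measured 22.1 and 24.2 in old and 14.8 and 14.4 in young samples. Both old samples were higher, by a log2 fold change of 0.66 ± 0.17, with a limma adjusted p of 0.0616 that missed the threshold. The difference was 0.61 after centring on chromosome 8 and 0.37 without RLE factors. It passed the threshold with old replicate 1 left out (0.72) or old replicate 2 left out (0.59), and not with either young replicate left out (0.68 and 0.64).

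Elsewhere in type IV genes the differences were smaller or opposite. Of the peaks of Col4a1, 8 of 13 had a negative log2 fold change, and 12 of 19 of those of Col4a2. Further start-site peaks of Col4a1 at 1.6 kb (15.9 and 10.1 in old, 15.8 and 10.9 in young) and 9.2 kb (14.6 and 13.2, 12.2 and 13.3) overlapped between the groups. The 400 bp peak shared by the starts of Col4a3 and Col4a4 measured 7.53 and 9.91 in old against 14.9 and 13.4 in young samples, from 7 and 13 against 18 and 18 reads. Both old samples were lower there, by a log2 fold change of -0.58 ± 0.39 with a limma adjusted p of 0.487.

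Type VI collagen, a beaded filament around cells, was described from the 3 genes of its common chains. Every peak of Col6a1 (2 of 2) and Col6a2 (5 of 5) and 8 of 9 of Col6a3 had a positive log2 fold change. At the start of Col6a1 the densities were 29.9 and 44.0 in old and 29.5 and 29.1 in young samples, at Col6a2 23.1 and 33.2 against 19.9 and 17.5, and at Col6a3 25.6 and 37.6 against 24.7 and 24.4. All 3 were higher in both old samples, by log2 fold changes of 0.31 ± 0.15, 0.57 ± 0.19 and 0.34 ± 0.16 with limma adjusted p of 0.320, 0.142 and 0.290. Without old replicate 1 all 3 passed 0.01, at 0.58, 0.82 and 0.61, and without old replicate 2 they were at 0.03, 0.31 and 0.06. Old replicate 2 was far above the other samples, and old replicate 1 at Col6a1 and Col6a3 was close to the young samples. The signs held without the RLE factors, at 0.02, 0.28 and 0.05. The other beaded filament genes did not share the direction, with 12 of 15 peaks of Col6a6, 4 of 7 of Col6a4 and 4 of 7 of Col6a5 negative. Over all 45 type VI peaks the median log2 fold change was 0.08, and both old samples lay above both young in 14 (31.1%, against 23.2% of all peaks) and below in 10 (22.2%, against 24.2%).

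Multiplexins, whose ends release anti-angiogenic fragments such as endostatin, had the highest median log2 fold change of the groups of other types with over 3 peaks, 0.26 over 36 peaks (0.13 to 0.33 over the 4 pairs). The multiplexin and transmembrane groups are set out because of these medians, with no test of a group. Both old samples were above both young in 15 of them (41.7%, against 23.2% of all peaks) and below in 4 (11.1%, against 24.2%). Of the peaks of Col18a1, the endostatin gene, 18 of 20 had a positive log2 fold change, and of those of Col15a1 8 of 16. Col18a1 (chr10:77052178-77166548) lies close to the type VI genes Col6a2 (chr10:76595762-76623630) and Col6a1 (chr10:76708792-76726168). These genes are thus not separate places in the genome, and whether their shared neighbourhood matters was not tested. The start-site peaks of Col18a1 overlapped between the groups, and 8 intronic peaks and 1 exonic peak were higher in both old samples. A 900 bp peak (chr10:77146701-77147600), for instance, measured 7.17 and 15.2 in old against 5.90 and 2.31 in young samples, from 15 and 45 against 16 and 7 reads (1.25 ± 0.43, limma adjusted p 0.147). An exonic peak of 1300 bp (chr10:77056401-77057700) measured 9.60 and 13.4 against 4.34 and 5.94 (1.05 ± 0.32, limma adjusted p 0.105). Both were taken for their large change among peaks whose groups did not overlap. Without old replicate 1 these peaks were at 1.74 and 1.27. Old replicate 2 was the higher old sample in both, so their differences were smaller without it. Col15a1 held the highest log2 fold change of all collagen peaks whose groups did not overlap, 1.52 ± 0.46 with a limma adjusted p of 0.106. That 400 bp intronic peak (chr4:47272101-47272500) measured 11.8 and 17.5 in old and 1.66 and 5.94 in young samples, from 11 and 23 against 2 and 8 reads. The Col15a1 start-site peaks of 2.4 and 0.9 kb had log2 fold changes of -0.11 and -0.11.

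Transmembrane collagens had the lowest median, -0.19 over 60 peaks (-0.40 to -0.03 over the 4 pairs). Both old samples were below both young in 23 (38.3%, against 24.2% of all peaks) and above in 8 (13.3%, against 23.2%). Most of the lower peaks belonged to Col25a1, a membrane collagen known from neurons and from motor innervation of muscle. Of its 23 peaks 22 had a negative log2 fold change, and in 14 the old samples were both under the young ones. Its single start-site peak, at a transcript start inside the gene, measured 13.2 and 7.04 in old and 14.8 and 11.0 in young samples, which overlapped. Summed over its peaks, Col25a1 had a density of 11.8 and 8.52 in old and 16.0 and 16.0 in young samples, 0.63 times as high in old.

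The 700 bp intronic Col25a1 peak whose centre is printed above (chr3:130264501-130265200) measured 7.99 and 6.53 in old and 19.9 and 25.02 in young samples, from 13 and 15 against 42 and 59 reads. Its log2 fold change was -1.46 ± 0.32, with a limma adjusted p of 0.0361, and -1.44 after centring on chromosome 3, where old replicate 2 ran 0.10 below its autosomal level. It was the only collagen peak past 0.01 when replicate numbers entered as a block, and it also passed on the deposited values (-1.71) and without old replicate 1 (-1.58). A 400 bp peak nearer the start of the gene (chr3:130216101-130216500) was taken for its large change among peaks whose groups did not overlap. It measured 2.15 and 7.62 in old against 9.12 and 23.7 in young samples, from 2 and 10 against 11 and 32 reads. Its log2 fold change was -1.35 ± 0.49 (limma adjusted p 0.175). That value ran from -1.94 to -0.76 with 1 sample left out, and passed 0.01 without old replicate 2 (-1.91). The other transmembrane genes were split, with 17 of 26 peaks of Col23a1, 2 of 7 of Col13a1 and none of 4 of Col17a1 negative.

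**Figure D5:**
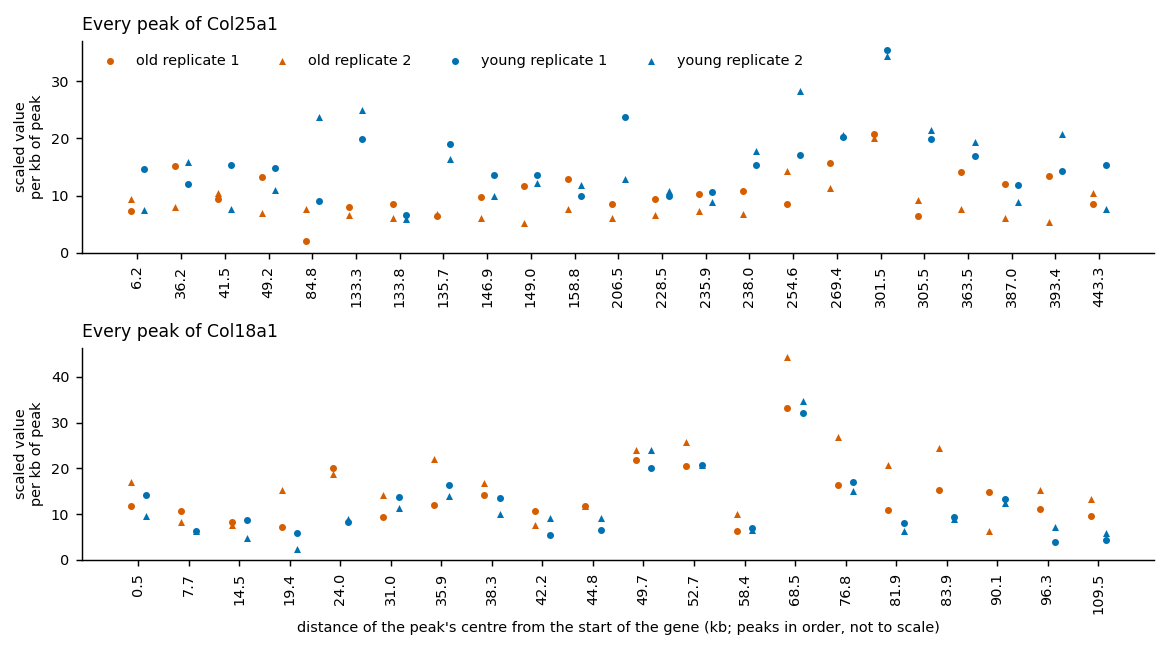
Points give the scaled value per kb of every peak of Col25a1 (23 peaks) and Col18a1 (20 peaks) in each of the 4 samples, in order along the gene, with the distance of the peak centre from the gene start in kb under each. In Col25a1 both old samples lie below both young in 14 peaks, and in Col18a1 both lie above in 9.

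Further named genes of the other types showed small differences between the ages at their starts, and their groups overlapped. At the start of Col12a1, a fibril-associated collagen of tendon and bone surfaces, the 12.7 kb peak measured 20.3 and 26.5 in old and 24.2 and 22.6 in young samples (-0.02 ± 0.14). A 32.4 kb peak at a transcript start near the far end of the gene measured 17.9 and 16.8 against 16.9 and 16.9 (0.03 ± 0.11). An 800 bp exonic Col12a1 peak (chr9:79630701-79631500) was taken for its large change among peaks whose groups did not overlap. It measured 2.69 and 4.96 in old against 8.29 and 16.7 in young samples, from 5 and 13 against 20 and 45 reads. Its log2 fold change was -1.40 ± 0.41, with a limma adjusted p of 0.0893. It was -1.73 without old replicate 2, the higher old sample, and smaller in size without old replicate 1. Col8a1, a network collagen of vessels and cornea, measured 25.3 and 20.7 in old and 20.51 and 21.1 in young samples at its start (0.13 ± 0.15). Col10a1 had a single peak, at 17.2 and 14.0 in old and 13.0 and 14.8 in young samples (0.15 ± 0.27). A 200 bp intronic Col16a1 peak (chr4:130081801-130082000) was taken in the same way as the 800 bp Col12a1 peak. It measured 12.9 and 15.2 in old against 6.63 and 1.48 in young samples (1.13 ± 0.49, limma adjusted p 0.258). Behind these values were 6 and 10 reads in the old and 4 and 1 in the young samples. The fibril-associated genes as a group had a median of -0.04 over 72 peaks and the network genes 0.05 over 24.

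Genes whose products modify, fold, secrete or cross-link collagen were looked at with the same fit. All 35 listed genes had peaks, 169 in all, and none passed an adjusted p under 0.01 (0.0563% of all peaks). Without old replicate 1, 8 were lower and 8 higher (5.45% and 3.35% of all peaks). Their median log2 fold change was 0.02, with both old samples below both young in 34 peaks (20.1%, against 24.2%) and above in 38 (22.5%, against 23.2%). At the starts of the lysyl oxidase Lox (38.3 and 38.5 in old, 35.8 and 39.8 in young) and the prolyl hydroxylase subunit P4ha1 (43.9 and 46.1, 46.6 and 43.7) the groups overlapped. The collagen chaperone Serpinh1 measured 28.6 and 40.2 against 31.6 and 29.8. The lysyl hydroxylase Plod2 was lower in both old samples, at 39.9 and 33.3 against 41.7 and 43.9 (-0.23 ± 0.12, limma adjusted p 0.350). Sparc, a collagen-binding matrix protein, had a pair of start-site peaks. The 34.9 kb peak was higher in both old samples, at 20.7 and 22.2 against 20.03 and 20.05 (0.10 ± 0.10, limma adjusted p 0.681). The other overlapped between the groups, at 39.7 and 40.9 in old and 37.7 and 42.0 in young samples (0.02 ± 0.16). Both start-site peaks of P4ha2 overlapped as well. A 500 bp peak of Mia3, a collagen export receptor, was the only one with a limma adjusted p under 0.05 (0.0439, log2 fold change -1.81 ± 0.42). It measured 2.58 and 3.05 in old and 18.6 and 11.9 in young samples, and is named after its values were seen. It adjoined, with no gap, a 300 bp Mia3 peak whose groups overlapped, at 8.61 and 5.08 in old and 6.63 and 9.89 in young samples (-0.20 ± 0.46).

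The motif letters were about as common in the central 300 bases of collagen peaks as of all autosomal peaks. AP-1 letters were in 22.7% of collagen peaks and 21.4% of all, RUNX letters in 25.4% and 26.1%, TEAD letters in 18.0% and 20.8%, SOX letters in 23.5% and 23.6%, and TATA box letters in 16.8% and 16.3%. CCAAT box letters, which lie within some longer motifs, were in 35.1% and 33.3%, and GC box letters in 7.41% and 9.67%. Of 42 autosomal collagen genes, 33 matched a RefSeq promoter of 300 bases, with 36 promoters in all. GC box letters were in 58.3% of these and in 36.0% of all 31396 autosomal promoters, and AP-1 letters in 2.78% and 7.84%.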

How the data were processed

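ATAC-seq of 2 old and 2 young samples of mouse bone MSCs was analysed from the deposited table, whose values the authors named RPKM. These deposited values are treated as a score that the authors made by scaling read counts per sample, because they were whole multiples of a step per sample (99.997% or more of values in each sample and width class, within 0.1 of a step) and so had not been divided by peak length. Processing tools listed by the submitters are Bowtie2 and Picard, with build mm10. The study's methods name chromstaR for peaks, for cells cultured at different oxygen levels. How peaks of the old and young samples were called is not given in the sources used here.

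Values were divided by RLE factors, between 0.813 and 1.15, and tested as log2(value + 1) with limma 3.58.1 in R 4.3.3 (lmFit, eBayes with trend and robust moderation) over all 117282 peaks, with Benjamini-Hochberg adjustment and a threshold of 0.01. No filter was used. The limma test was run on simulated counts, with a spread that was set and not estimated from these samples. At 0.01 it recovered 91% of 100 peaks changed by 2 on the log2 scale and 41% of 100 changed by 1. It made 1 false call. Changes of that smaller size can thus be missed. The smallest p of an exact permutation test on 2 samples a group is 0.33. Genes, exons and starts came from GENCODE vM21, sequences from RefSeq (GRCm38, and GRCm38.p6 for promoters), and summaries from Python 3.11.15, numpy 2.4.6, pandas 2.3.3, scipy 1.17.1 and matplotlib 3.10.9. Reads are not independent molecules, and depth limits counting precision only.

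Collagen genes, classes and gene lists were chosen with earlier results of these data known. A listed marker gene is not reported here. Named peaks are every start-site peak of fibrillar and autosomal type IV genes, of Col6a1, Col6a2, Col6a3, Col8a1, Col10a1, Col12a1, Col15a1 and Col18a1, and of Lox, Serpinh1, P4ha1, P4ha2, Plod2 and Sparc among the processing genes, any peak past the threshold, in each direction the 5 collagen peaks with the largest change among those whose groups did not overlap, the 5 densest and the 3 widest. Others are named as chosen after their values were seen, or with their number of peaks. Alternatives were the values as deposited, quantile normalization, pseudocounts of 0.1 and 5, a filter on the lower quartile, centring by chromosome, correction for GC content and width, replicate blocks, plain moderation, limma-voom on recovered reads, a threshold of 0.05, gene bodies alone, another class for 3 genes, the densest peak of each gene and leaving out each sample.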

Additional observations from a re-analysis of the deposited data

How the results depend on the processing

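The count of 0 collagen peaks past 0.01 in each direction was the same under quantile normalization, both pseudocounts, the filter on weak peaks, chromosome centring, correction for GC content and width, plain moderation, limma-voom and gene bodies alone. It rose to 3 lower on the deposited values, 2 lower at a threshold of 0.05, and 1 lower with the replicate block, where 1.14%, 0.771% and 0.773% of all peaks were lower. Leaving out 1 sample at a time gave 0 to 23 lower and 0 to 18 higher (at most 5.45% and 3.35% of all peaks). Processing genes went from 0 to 2 lower on the deposited values, 1 lower at 0.05 and 1 lower with the replicate block, of 169 and beside the same shares of all peaks, and to between 0 and 8 in each direction with 1 sample left out. Same-numbered old and young samples did not deviate together (Pearson r = -0.10 over 117282 peaks, which are not independent), so replicate numbers were not taken as pairs, and the block changed none of the other calls or signs of named peaks. The cause of these changes was not tested.

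On the deposited values, without the RLE factors, the median log2 fold change was -0.31 over all collagen peaks, -0.25 over fibrillar, -0.34 over basement membrane, -0.31 over other and -0.16 over start-site peaks, and 75.1% of collagen peaks were lower (74.6% of all peaks). With Col7a1, Col15a1 and Col18a1 counted as basement membrane types, the basement membrane median was 0.056. Centred by chromosome, 56.3% of collagen peaks were lower (52.5% of all peaks), beside 52.8% and 49.9% in the main fit. With 1 sample left out, the medians ran from -0.045 to 0.013 over all and -0.063 to 0.083 over fibrillar peaks. They ran from -0.13 to 0.064 over basement membrane, -0.050 to 0.026 over other and 0.034 to 0.13 over start-site peaks. The share of collagen peaks lower then ran from 49.1% to 54.6% (49.4% to 50.6% of all peaks). Median densities of the densest peak of each gene were 34.2, 34.6 and 28.1 for fibrillar, basement membrane and other genes, above those at start sites.

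Of 45 named peaks, none past the threshold, the sign turned on the deposited values in 16: Col3a1 (3.3 kb, -0.25), Col5a2 (7.1 kb, -0.16), Col5a1 (91.4 kb, -0.14, and 46.1 kb, -0.029), Col11a1 (-0.19), Col24a1 (-0.24), Col27a1 (-0.18), Col1a2 (-0.080), Col1a1 (-0.16), Col4a1 (9.2 kb, -0.16), Col12a1 (32.4 kb, -0.26), Col10a1 (-0.12), Col18a1 (-0.14 and -0.013) and Col8a1 (-0.25 and -0.15). Corrected for GC content and width it turned in 7: Col3a1 (0.13 and 0.089), Col5a1 (-0.0088), Col24a1 (-0.093), Col27a1 (-0.0067), Col12a1 (0.040) and Col1a1 (-0.0020). Under quantile normalization it turned in Col12a1 (0.0473) and Col2a1 (0.0475), and centred by chromosome in Col12a1 (-0.038) and Col1a1 (-0.015). With 1 sample left out, it turned in 1 to 7 of them. Narrow peaks rest on few reads, and with 2 samples a group a difference that missed the threshold does not show that the ages were alike.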

Other observations

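The remaining collagen genes of the annotation, the type IV genes Col4a5 and Col4a6, lie on chromosome X and were left out of the counts. They held 10 peaks, 8 of them with a negative log2 fold change and a median of -0.17, beside a median of -0.16 over all 2521 peaks of chromosome X. Over its 3 peaks, Col4a5 had a density of 16.6 and 16.1 in old and 22.4 and 22.4 in young samples. Col4a6, over 8 peaks of which 1 is shared with Col4a5, had 21.5 and 19.2 in old and 21.3 and 24.9 in young samples. The median log2 fold change was -0.66 over the 3 peaks of Col4a5 and -0.12 over the 8 of Col4a6.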
